A study of Mus musculus with 6 samples.

Results

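The genes described here are 33 mouse genes of pyruvate oxidation and the tricarboxylic acid (TCA) cycle, chosen by their names: the mitochondrial pyruvate carrier, the pyruvate dehydrogenase complex with its kinases and phosphatases, the enzymes of the cycle, the enzymes that fill and drain it, and 3 carriers of its intermediates. Succinate dehydrogenase was not among them. Of the 33 genes, 32 were listed in all 6 libraries and passed the filter on low values, out of 20788 genes listed at least once and 14336 genes tested. *Pdk4* was listed in none. Expression had been measured by RNA sequencing in Tyr-L and Tyr-H cells, which are subclones of the mouse melanoma line B16 (strain C57BL/6) labelled as having low and high tyrosinase activity, with 3 libraries of each. Both were grown in low-glucose DMEM with fetal bovine serum, penicillin and streptomycin, and the labels name no treatment of either. The study picked its subclones as single-cell colonies and compared them for their use of tyrosine and for where they grow in the body. Whether separate cultures or separate clones lie behind the 3 libraries of each kind is not given in the sources used here, so SD, standard errors (SE) and p-values cover the spread between these libraries, which may be technical.

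Pyruvate made by glycolysis enters mitochondria through a carrier of the inner membrane, and the pyruvate dehydrogenase complex turns it into acetyl-CoA. Kinases switch this complex off by phosphorylating its E1 alpha subunit, and phosphatases switch it back on. The cycle then oxidizes the acetyl group, while carboxylation of pyruvate, oxidation of glutamate and transamination feed carbon in, and phosphoenolpyruvate carboxykinase, citrate export and malate export draw carbon out.

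Values are FPKM, fragments scaled by the length of the transcript and by the number of fragments mapped in the library, so that levels can be set side by side between genes. Each library listed 16813 to 17413 genes at an estimated depth of 18700000 to 21100000 fragments. Libraries of the same group differed by a median of 0.095 to 0.114 per gene on the log2 scale, and libraries of different groups by 0.315 to 0.371, so that the groups stood apart and no library stood apart from its own group. *Tyr*, which encodes tyrosinase, was at 9.52 to 10.7 FPKM in the Tyr-L libraries against 19.7 to 23.8 FPKM in the Tyr-H libraries, the order that the labels give. All 7 melanocyte markers were listed, with a summed level of 7340 to 7660 FPKM in Tyr-L against 5440 to 5960 FPKM in Tyr-H libraries. Of 6 leukocyte markers, *Ptprc*, *Adgre1*, *Csf1r* and *Itgam* were not listed and the sum was 3.44 to 4.18 FPKM in Tyr-L against 4.44 to 4.83 FPKM in Tyr-H libraries, nearly all of it *Cd68*. The 5 fibroblast markers summed to 0.952 to 1.18 FPKM, the 2 keratinocyte markers to at most 0.0349 FPKM and the 2 endothelial markers, of which *Cdh5* was not listed, to at most 0.054 FPKM over the 6 libraries.

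Most of these genes were slightly higher in Tyr-H cells. With limma on log2(FPKM + 0.1) and Benjamini-Hochberg adjustment over all tested genes, 21 of the 32 tested members (65.6%) were higher in Tyr-H cells at an adjusted p no larger than 0.05, against 17.9% of all tested genes. Lower in Tyr-H cells at that threshold were 4 members (12.5%), *Idh1*, *Pdp2*, *Slc25a10* and *Pdhx*, against 39.9% of all tested genes. The other 7 did not pass. The members were chosen with earlier results of these data known, so these shares describe the chosen genes and do not test the pathway. The changes were small: 25 of the 32 log2 fold changes were under 0.5 in size, and only *Pck2* and *Pdk2* were also at least 2-fold higher, 6.25% of the members against 2.96% of all tested genes. Of these, *Pdk2* had low values. It was lost without Tyr-H replicate 3, Tyr-L replicate 2 or Tyr-L replicate 3, and with a pseudocount or a filter of 1 FPKM, which left 1 member. No member was at least 2-fold lower, a class that held 5.78% of all tested genes.

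The groups did not overlap for 28 of the 32 members, and overlapped for *Dlat*, *Idh2*, *Slc25a1* and *Slc25a11*. In 24 of the 32 (75.0%) every Tyr-H library was above every Tyr-L library, against 20.2% of all tested genes, and in 4 every Tyr-H library was below, against 43.8%. The members are abundant genes: 27 of the 32 were in the top 25% of tested genes by mean level, which ran from 0.245 to 324 FPKM. Among the 6227 genes averaging 10 FPKM or more, 23.9% were higher and 47.3% lower in Tyr-H cells at the same threshold, while of the 28 members at that level 18 were higher and 3 lower.

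The median log2 fold change of the members was 0.20, and that of all tested genes was -0.15, so most genes were a little lower in Tyr-H cells on the deposited scale. Among genes averaging 10 FPKM or more it was -0.11. Of the 32 members, 28 lay above the median of all tested genes, against which each log2 fold change given below is larger by that median's distance from 0. After median ratio scaling between libraries the median of all genes moved to -0.01 and that of the members to 0.35, and 26 members were higher and 4 lower, against 27.8% and 27.0% of all tested genes. Quantile normalization gave 23 members higher and 4 lower, against 26.0% and 27.8% of all tested genes. Rescaling each library to a total of 1000000 gave 16 members higher and 7 lower, against 13.0% and 47.8%. The number of members above the median of all genes was 27 or 28 under each of the 4 scalings. The summed level of the members was 2413.7, 2445.3 and 2399.4 FPKM in the Tyr-L libraries against 2779.3, 2723.5 and 2730.1 FPKM in the Tyr-H libraries, or 0.528% to 0.543% and 0.552% to 0.587% of all FPKM.

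**Figure D1:**
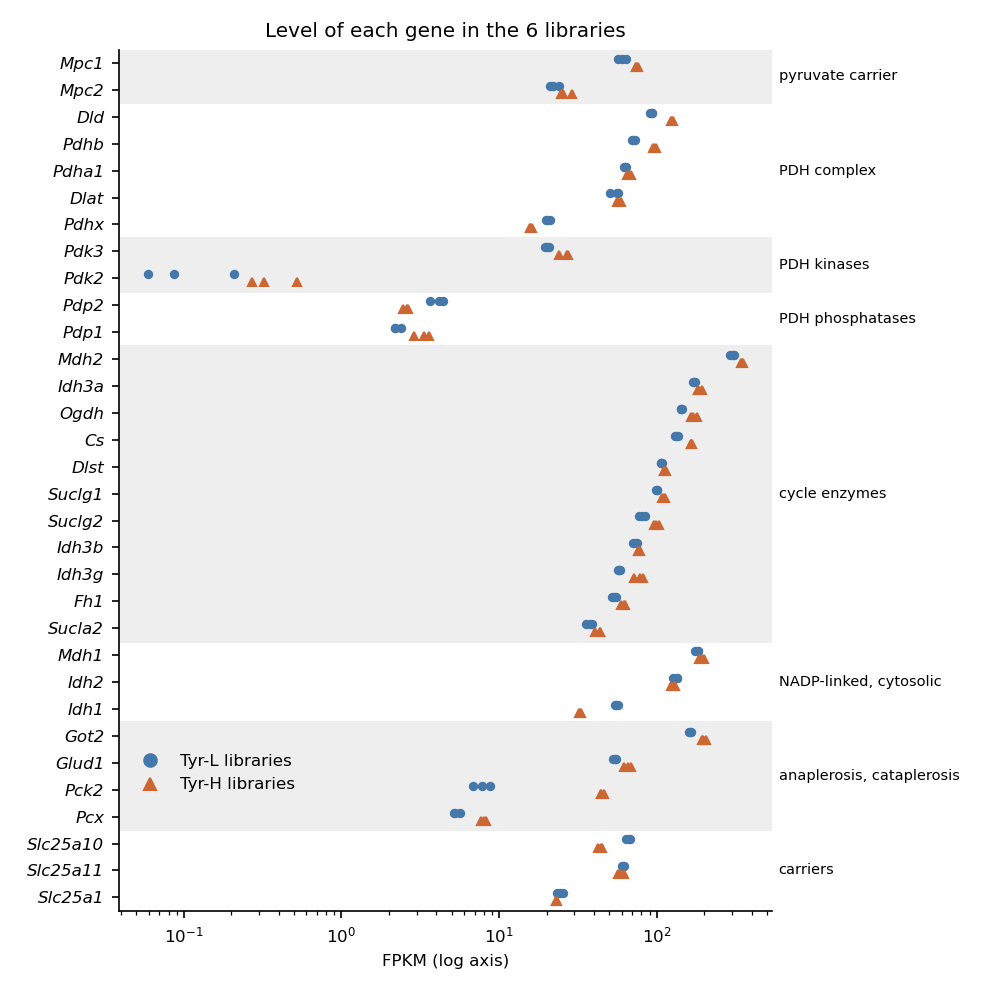
Level of each of the 32 listed genes in FPKM (log axis) in the 3 Tyr-L libraries (circles) and 3 Tyr-H libraries (triangles), grouped by role. Levels run from *Pdk2*, with 0.0597 to 0.524 FPKM, to *Mdh2*, with 291 to 350 FPKM, and the widest gap between the groups is that of *Pck2*.

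**Figure D2:**
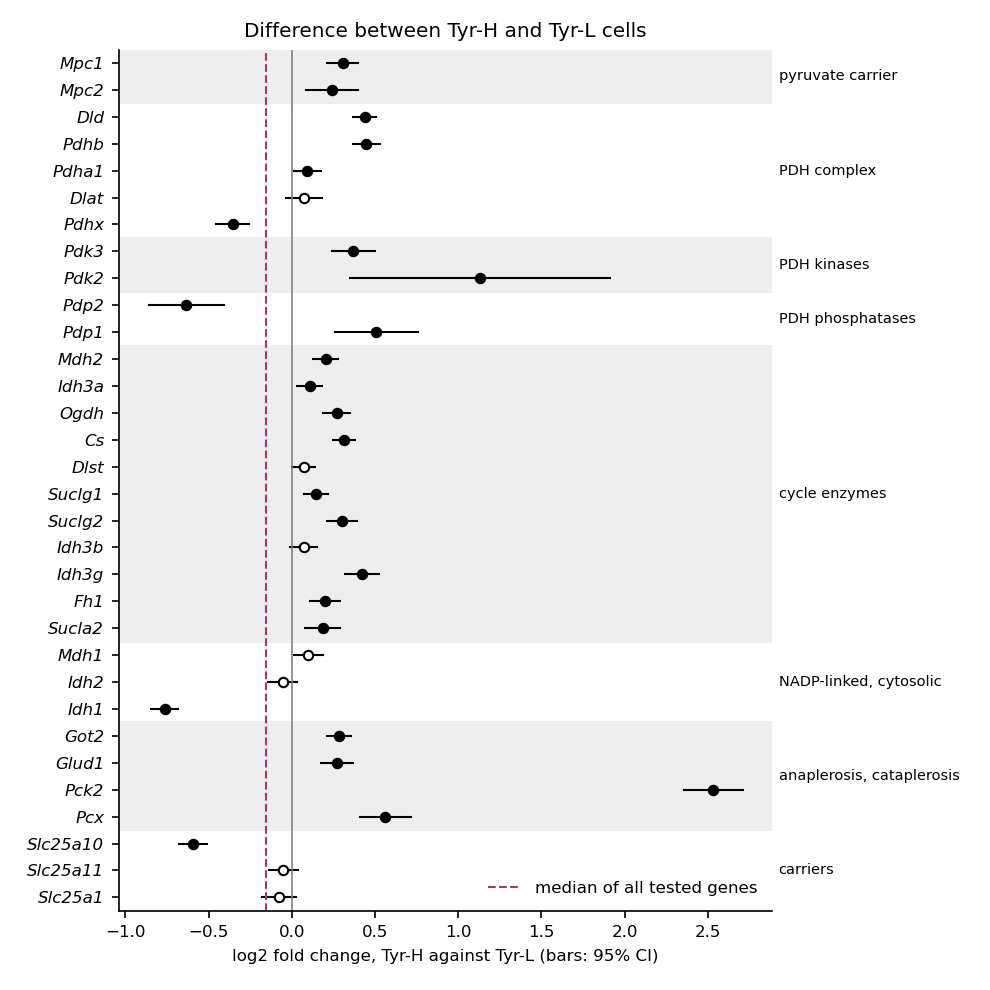
Log2 fold change of each tested gene, Tyr-H against Tyr-L, with its 95% confidence interval from limma; filled points have an adjusted p of at most 0.05 and the dashed line is the median of all tested genes, -0.15. *Pck2* at 2.53 stands far to the right of the other genes, and *Idh1* at -0.76 is the lowest.

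Both subunits of the mitochondrial pyruvate carrier were higher in Tyr-H cells, *Mpc2* not passing after rescaling to a total of 1000000 (limma adjusted p = 0.064). *Mpc1* held 60.4, 63.5 and 57.1 FPKM in the Tyr-L libraries against 74.0, 74.0 and 75.6 FPKM in the Tyr-H libraries. The groups did not overlap, and the log2 fold change was 0.31 (SE 0.04, limma adjusted p = 0.00022). *Mpc2*, its partner, rose by 18.6%, from 22.4 ± 1.47 to 26.5 ± 2.33 FPKM (SD, n = 3; limma adjusted p = 0.014). It did not pass without Tyr-L replicate 3 or without a variance trend (limma adjusted p = 0.057 each). The ratio of *Mpc1* to *Mpc2* within a library was 2.65 to 2.75 in Tyr-L and 2.59 to 2.98 in Tyr-H libraries, which overlap. *Mpc1* has a named pseudogene copy, *Mpc1-ps*, listed at a mean of 1.38 FPKM, and reads could be split between them.

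The subunits of the pyruvate dehydrogenase complex did not change alike. *Pdhb*, which encodes the E1 beta subunit, held 69.2, 70.7 and 73.1 FPKM in the Tyr-L libraries against 99.5, 94.7 and 96.5 FPKM in the Tyr-H libraries. It was 1.37-fold higher in Tyr-H cells (log2 fold change 0.45, SE 0.04, limma adjusted p = 7.7e-06). *Dld*, the E3 subunit that the complex shares with the 2-oxoglutarate dehydrogenase complex, held 93.3, 90.6 and 93.1 FPKM in Tyr-L against 127, 125 and 124 FPKM in Tyr-H libraries. Its log2 fold change was 0.44 (SE 0.03, limma adjusted p = 3.8e-06), nearly that of *Pdhb*. *Pdhx*, the E3-binding protein that anchors *Dld*'s product in the complex, went the other way, with 19.7, 21.1 and 20.1 FPKM in Tyr-L against 16.1, 15.7 and 15.8 FPKM in Tyr-H libraries. Every Tyr-H library was below every Tyr-L library (log2 fold change -0.36, SE 0.04, limma adjusted p = 0.00012).

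The 2 remaining subunits changed least. *Pdha1*, the E1 alpha subunit that carries the phosphorylation sites, was 62.8 ± 1.00 FPKM in Tyr-L against 67.0 ± 2.06 FPKM in Tyr-H cells (SD, n = 3), a log2 fold change of 0.09 (limma adjusted p = 0.046) that went to -0.001 after rescaling to a total of 1000000. It did not pass without Tyr-H replicate 1 or 2 or without any 1 of the Tyr-L libraries (limma adjusted p = 0.07 to 0.14), with no filter on low values (0.056) or without a variance trend (0.12). *Dlat*, the E2 acetyltransferase core, was 54.6 ± 3.32 and 57.4 ± 1.57 FPKM (SD, n = 3), and its libraries overlapped (log2 fold change 0.07, 95% confidence interval -0.04 to 0.18, limma adjusted p = 0.23; -0.02 after rescaling to a total of 1000000). *Dlat* passed as higher after median ratio scaling (limma adjusted p = 0.0045) and quantile normalization (limma adjusted p = 0.047).

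A ratio of genes within a library is the same under any scaling by 1 factor per library, though not under quantile normalization. In all, 15 such ratios were compared, 14 of 2 genes each and 1 of *Pdk2* and *Pdk3* summed to the summed phosphatases. For 11 of them the groups did not overlap, and each of these had an exact permutation p of 0.1, the smallest that 3 libraries against 3 can give, or 0.136 after Benjamini-Hochberg adjustment over the 15, so that none could pass 0.05. The ratio of *Pdhb* to *Pdha1* was 1.1, 1.14 and 1.15 in the Tyr-L libraries and 1.44, 1.41 and 1.48 in the Tyr-H libraries. That of *Dlat* to *Pdhx* was 2.58, 2.66 and 2.84 in Tyr-L and 3.68, 3.56 and 3.63 in Tyr-H libraries. Thus, in E1 and in the E2 core, the 2 partners stood in another proportion in Tyr-H cells, by 1.28-fold and 1.35-fold. On the log2 scale these differences were 0.356 and 0.429, against 0.344 and 0.367 after quantile normalization.

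Of the kinases that inactivate the complex, *Pdk3* was the main one listed. It held 20.2, 20.8 and 19.5 FPKM in the Tyr-L libraries against 27.1, 27.4 and 24.1 FPKM in the Tyr-H libraries. Every Tyr-H library was above every Tyr-L library (log2 fold change 0.37, SE 0.06, limma adjusted p = 0.0004). *Pdk2* held 0.209, 0.087 and 0.0597 FPKM in Tyr-L against 0.321, 0.269 and 0.524 FPKM in Tyr-H libraries. The Tyr-L levels are near the value that 3 fragments would give, which is 0.0633 to 0.0714 FPKM for this gene and is called its floor here, and 1 Tyr-L library lies under it. The log2 fold change of *Pdk2* was 1.13 (95% confidence interval 0.35 to 1.91, limma adjusted p = 0.019) and depended on the pseudocount, being 1.69 with 0.01 FPKM and 0.29, no longer 2-fold, with 1 FPKM. Its adjusted p rose above 0.05 without Tyr-H replicate 3 (0.081), Tyr-L replicate 2 (0.055) or Tyr-L replicate 3 (0.062). *Pdk4*, the kinase known to rise in fasting, was listed in no library, where 3 fragments would have given 0.0408 to 0.046 FPKM.

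*Pdk3* made up 68.1% to 76.7% of the summed FPKM of the listed kinases in the 6 libraries and *Pdk2* 0.21% to 1.5%. The rest was *Pdk1*, a kinase outside the chosen genes, at 8.43 ± 0.80 FPKM in Tyr-L against 9.52 ± 1.38 FPKM in Tyr-H cells (SD, n = 3; limma adjusted p = 0.22), and it passed as higher after median ratio scaling (log2 fold change 0.32, limma adjusted p = 0.028).

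The phosphatase genes moved in opposite directions. *Pdp1*, the calcium-stimulated phosphatase, held 2.19, 2.19 and 2.4 FPKM in Tyr-L against 2.88, 3.35 and 3.57 FPKM in Tyr-H libraries (log2 fold change 0.51, SE 0.11, limma adjusted p = 0.0035). *Pdp2*, which is known to respond to insulin, held 4.14, 3.64 and 4.38 FPKM in Tyr-L against 2.65, 2.61 and 2.45 FPKM in Tyr-H libraries (log2 fold change -0.64, SE 0.10, limma adjusted p = 0.0005). Neither gene's groups overlapped. The ratio of *Pdp1* to *Pdp2* was 0.53, 0.601 and 0.547 in the Tyr-L libraries and 1.09, 1.28 and 1.46 in the Tyr-H libraries. *Pdp2* was thus the more abundant of the pair in each Tyr-L library and *Pdp1* in each Tyr-H library, a shift of 2.27-fold in their ratio (exact permutation test, two-sided, p = 0.1). The sum of *Pdk2* and *Pdk3* over the sum of the phosphatases was 3.23, 3.59 and 2.89 in Tyr-L and 4.96, 4.64 and 4.1 in Tyr-H libraries, without overlap. This ratio leaves out *Pdk1*, which made up 22.4% to 31.2% of the summed kinase FPKM in the libraries.

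**Figure D3:**
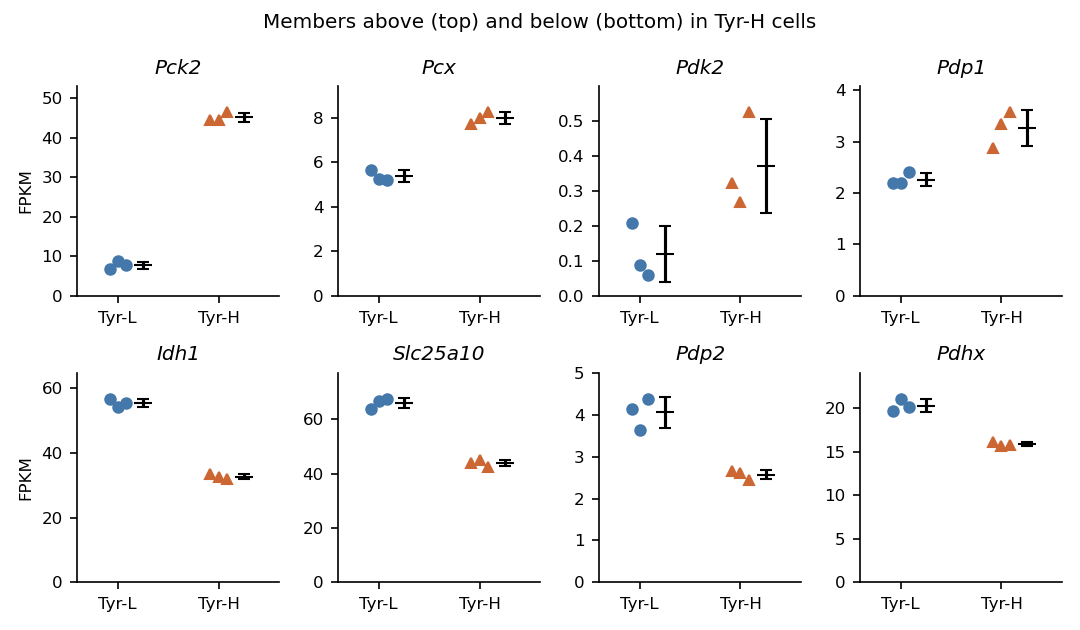
FPKM in each library (points), with the mean and SD of 3 libraries beside them, for *Pck2*, *Pcx*, *Pdk2* and *Pdp1*, higher in Tyr-H cells, and for *Idh1*, *Slc25a10*, *Pdp2* and *Pdhx*, lower in Tyr-H cells. The groups are apart in each panel, and those of *Pdk2* lie lowest, at 0.0597 to 0.209 and 0.269 to 0.524 FPKM.

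Of the 11 enzymes of the cycle proper, 9 were higher in Tyr-H cells and none was lower (17.9% and 39.9% of all tested genes), though *Idh3a*, *Sucla2* and *Suclg1* did not pass after rescaling to a total of 1000000 (13.0% of all tested genes higher and 47.8% lower). The 2 others, *Idh3b* and *Dlst*, passed as higher after median ratio scaling or quantile normalization. *Cs*, citrate synthase, which joins acetyl-CoA to oxaloacetate, held 131, 137 and 133 FPKM in Tyr-L against 166, 167 and 166 FPKM in Tyr-H libraries (log2 fold change 0.32, SE 0.03, limma adjusted p = 2.3e-05). The means were 133.5 ± 2.79 and 166.1 ± 0.575 FPKM (SD, n = 3), the Tyr-H libraries being almost equal.

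NAD-linked isocitrate dehydrogenase is built from the catalytic alpha subunit and the beta and gamma subunits. *Idh3g*, for gamma, held 58.4, 57.8 and 56.9 FPKM in Tyr-L against 78.6, 72.2 and 81.4 FPKM in Tyr-H libraries (log2 fold change 0.42, SE 0.05, limma adjusted p = 4.9e-05). *Idh3a*, for alpha, was 173 ± 2.98 and 187 ± 5.62 FPKM (SD, n = 3), a log2 fold change of 0.11 (limma adjusted p = 0.02) that did not pass without Tyr-H replicate 1 (0.064), Tyr-L replicate 1 (0.058) or Tyr-L replicate 3 (0.074), after quantile normalization (0.11) or without a variance trend (0.083). *Idh3b*, for beta, was 73.4 ± 2.36 and 77.1 ± 1.25 FPKM (SD, n = 3; log2 fold change 0.07, 95% confidence interval -0.01 to 0.15, limma adjusted p = 0.11), and went to -0.02 after rescaling to a total of 1000000. The ratio of *Idh3g* to *Idh3b* was 0.777 to 0.805 in Tyr-L and 0.937 to 1.07 in Tyr-H libraries, while the ratio of *Idh3a* to *Idh3b* overlapped between the groups, at 2.29 to 2.41 and 2.39 to 2.46, and its difference turned sign after quantile normalization. *Idh3b* overlaps *Nop56* on the opposite strand, which was at 157 FPKM in Tyr-L against 116 FPKM in Tyr-H cells, and whether reads were counted by strand is not given in the sources used here.

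*Ogdh*, the E1 subunit of the 2-oxoglutarate dehydrogenase complex, was 143 ± 1.34 FPKM in Tyr-L against 172 ± 6.81 FPKM in Tyr-H cells (SD, n = 3), a log2 fold change of 0.27 (limma adjusted p = 0.00016). *Dlst*, its E2 subunit, was 107 ± 1.33 and 112 ± 2.16 FPKM (SD, n = 3; log2 fold change 0.07, limma adjusted p = 0.076; -0.02 after rescaling to a total of 1000000). The ratio of *Ogdh* to *Pdha1*, the E1 genes of the complexes that share *Dld*, was 2.23 to 2.34 in Tyr-L and 2.55 to 2.6 in Tyr-H libraries, without overlap, a difference of 0.18 on the log2 scale that went to 0.11 after quantile normalization.

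Succinyl-CoA ligase pairs a common alpha subunit, *Suclg1*, with a beta subunit that sets whether ADP (*Sucla2*) or GDP (*Suclg2*) is used. *Suclg2* held 83.9, 77.3 and 80.9 FPKM in Tyr-L against 103, 98.9 and 96.5 FPKM in Tyr-H libraries (log2 fold change 0.30, SE 0.04, limma adjusted p = 0.00019). *Sucla2* was 37.3 ± 1.59 and 42.5 ± 1.84 FPKM (SD, n = 3; log2 fold change 0.19, limma adjusted p = 0.0075) and *Suclg1* was 99.9 ± 1.33 and 111 ± 2.94 FPKM (SD, n = 3; log2 fold change 0.15, limma adjusted p = 0.0039). The GDP-linked subunit was the more abundant in both cell types. The ratio of *Sucla2* to *Suclg2* was 0.452 to 0.477 in Tyr-L and 0.392 to 0.45 in Tyr-H libraries, which touch without overlapping. The difference was -0.12 on the log2 scale, but -0.05 without Tyr-H replicate 1 and -0.07 after quantile normalization.

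The last steps of the cycle moved by similar amounts. *Fh1*, fumarase, was 53.6 ± 1.72 FPKM in Tyr-L against 61.5 ± 1.94 FPKM in Tyr-H cells (SD, n = 3; log2 fold change 0.20, limma adjusted p = 0.0019). *Mdh2*, mitochondrial malate dehydrogenase and the most abundant of the 32 genes, was 301 ± 8.93 and 347 ± 4.18 FPKM (SD, n = 3; log2 fold change 0.20, limma adjusted p = 0.00063).

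Of the 3 NADP-linked and cytosolic isoenzymes, 1 was lower in Tyr-H cells and 2 did not pass, where 39.9% of all tested genes were lower, so the count does not set them apart. *Idh1*, the cytosolic isocitrate dehydrogenase that makes NADPH, held 56.6, 54.1 and 55.4 FPKM in the Tyr-L libraries against 33.3, 32.6 and 32.0 FPKM in the Tyr-H libraries. It was 1.70-fold higher in Tyr-L cells (log2 fold change -0.76, SE 0.04, limma adjusted p = 5e-07), the largest decrease in Tyr-H cells among the members. *Idh2*, the mitochondrial NADP-linked enzyme, overlapped between the groups at 132 ± 4.81 and 127 ± 3.81 FPKM (SD, n = 3; log2 fold change -0.05, 95% confidence interval -0.14 to 0.03, limma adjusted p = 0.26), and its sign turned to 0.10 after median ratio scaling, while rescaling to a total of 1000000 made it pass as lower (limma adjusted p = 0.022). *Mdh1*, cytosolic malate dehydrogenase, was 180 ± 4.98 and 193 ± 7.66 FPKM (SD, n = 3; log2 fold change 0.10, limma adjusted p = 0.051), and passed as higher after median ratio scaling (limma adjusted p = 0.00058), without Tyr-H replicate 2 (limma adjusted p = 0.026) or with the filter at a mean of 1 FPKM (limma adjusted p = 0.044).

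Within a library, *Idh1* stood at 0.448, 0.399 and 0.415 of the *Idh2* level in Tyr-L and at 0.256, 0.254 and 0.261 of it in Tyr-H libraries. *Mdh1* stood at 0.596 to 0.601 of the *Mdh2* level in Tyr-L and 0.532 to 0.572 in Tyr-H libraries. In both pairs the cytosolic gene was the lower one, and more so in Tyr-H cells, without overlap between the groups (exact permutation test, two-sided, p = 0.1 each).

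All 4 genes that feed or drain the cycle at oxaloacetate and 2-oxoglutarate were higher in Tyr-H cells, as were 17.9% of all tested genes. *Pck2*, the mitochondrial phosphoenolpyruvate carboxykinase that turns oxaloacetate into phosphoenolpyruvate, held 6.84, 8.72 and 7.74 FPKM in the Tyr-L libraries against 44.5, 44.6 and 46.5 FPKM in the Tyr-H libraries. It was 5.82-fold higher in Tyr-H cells (log2 fold change 2.53, 95% confidence interval 2.36 to 2.71, limma adjusted p = 8.2e-08), the largest change of any member and number 39 among all 14336 tested genes ordered from the largest increase. Without any 1 library the log2 fold change stayed between 2.45 and 2.62. *Pck2* overlaps *Gm10876* on the opposite strand, which was not listed.

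*Pcx*, pyruvate carboxylase, which makes oxaloacetate from pyruvate, held 5.67, 5.23 and 5.21 FPKM in Tyr-L against 7.7, 8.0 and 8.24 FPKM in Tyr-H libraries (log2 fold change 0.56, SE 0.07, limma adjusted p = 9e-05). The overlapping *Lrfn4*, on the opposite strand, was at 12.9 FPKM in Tyr-L against 10.3 FPKM in Tyr-H cells. The ratio of *Pck2* to *Pcx*, the gene that removes oxaloacetate over the one that makes it, was 1.21, 1.67 and 1.48 in Tyr-L and 5.78, 5.58 and 5.65 in Tyr-H libraries. *Glud1*, glutamate dehydrogenase, was 54.2 ± 1.43 and 65.5 ± 3.29 FPKM (SD, n = 3; log2 fold change 0.27, limma adjusted p = 0.00053). *Got2*, the mitochondrial aspartate aminotransferase, was 163 ± 2.86 and 199 ± 4.59 FPKM (SD, n = 3; log2 fold change 0.29, limma adjusted p = 5.8e-05). Both bring carbon of glutamate into the cycle. The ratio of *Glud1* to *Got2* was 0.324 to 0.34 in Tyr-L and 0.313 to 0.338 in Tyr-H libraries, which overlap, a difference of -0.01 (SE 0.04) on the log2 scale that turned to 0.08 after quantile normalization (exact permutation test, two-sided, p = 0.8).

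**Figure D4:**
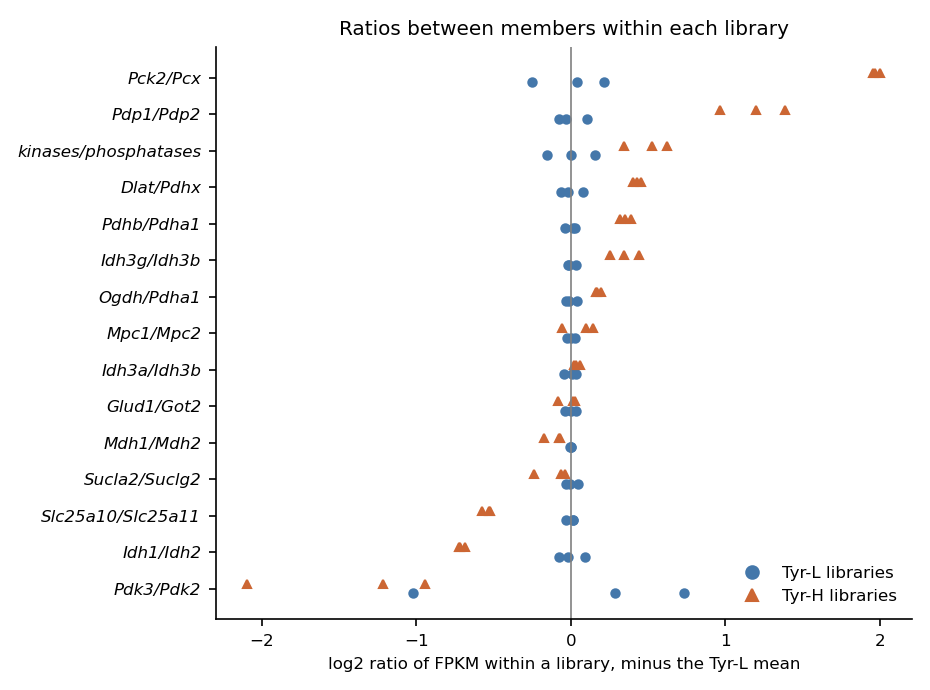
Log2 ratio within each library, with the mean of the 3 Tyr-L libraries set to 0, for the 15 ratios compared (14 of 2 genes, 1 of *Pdk2* and *Pdk3* summed to *Pdp1* and *Pdp2* summed). The groups are apart for 11 ratios, led by *Pck2*/*Pcx*, 1.98 higher on the log2 scale in Tyr-H cells, and *Pdp1*/*Pdp2*, 1.18 higher, and overlap for *Mpc1*/*Mpc2*, *Idh3a*/*Idh3b*, *Glud1*/*Got2* and *Pdk3*/*Pdk2*.

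The promoter of *Pck2* is shown because this gene changed by far the most. In the RefSeq sequence of GRCm38.p6, the 250 bases before its start site lie at chr14:55540016-55540265 on the plus strand. They hold 1 match, in capitals, to TGATGNAAN (N is any base), the form of the element that ATF4 with C/EBP proteins is known to bind in genes of the amino acid response.

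*Pck2* promoter: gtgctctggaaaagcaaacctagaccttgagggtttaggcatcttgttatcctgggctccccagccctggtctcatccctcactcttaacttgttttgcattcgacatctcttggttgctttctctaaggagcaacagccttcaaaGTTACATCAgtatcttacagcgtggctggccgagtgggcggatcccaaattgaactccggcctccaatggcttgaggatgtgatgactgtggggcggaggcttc

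Both strands were searched, and the capitals are the match read on the other strand. A window was held for 31 of the 33 members, all but *Pdp1* and *Idh3a*, and *Pck2* was the 1 member with this match, which 1052 of 27025 genes (3.89%) had. Of 24 other genes of the pathway with a window, *Got1* and *Me3* had it. *Got1*, the cytosolic aspartate aminotransferase, held 88.9, 91.2 and 87.4 FPKM in Tyr-L against 141, 141 and 144 FPKM in Tyr-H libraries. *Me3*, a mitochondrial malic enzyme, was 2.08 ± 0.40 and 2.56 ± 0.40 FPKM (SD, n = 3; limma adjusted p = 0.16), and passed as higher after median ratio scaling (log2 fold change 0.44, limma adjusted p = 0.049). The 3 matches, with 10 bases on each side and the match in capitals, are set out here for comparison.
*Pck2*, chr14:55540152-55540180, plus strand: agccttcaaaGTTACATCAgtatcttaca
*Got1*, chr19:43524690-43524718, minus strand: cattgcattgGTTGCATCAtacaagcctc
*Me3*, chr7:89632773-89632801, plus strand: aggctagcgcCTTCCATCAggaaccccca

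Between the match and the start site lie 95 bases in *Pck2*, 94 in *Got1* and 26 in *Me3*. GCGCATGCG, the form of the NRF1 element, was present in 1.64% of genes and in 1 member, *Ogdh*, and TNAAGGTCA, a form of the element of estrogen-related receptors, in 1.3% of genes and in no member. No member's window held matches to more than 1 of these forms. These matches describe letters in the windows, and binding was not measured in these data.

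Of the 3 carriers that exchange intermediates with the cytosol, 1 was lower in Tyr-H cells and 2 did not pass, where 39.9% of all tested genes were lower. *Slc25a11* passed as higher after median ratio scaling (limma adjusted p = 0.042), and both it and *Slc25a1* passed as lower after rescaling to a total of 1000000 (limma adjusted p = 0.024 for *Slc25a11* and 0.016 for *Slc25a1*), where 47.8% of all tested genes were lower. *Slc25a10*, the dicarboxylate carrier, held 64.0, 66.7 and 67.6 FPKM in Tyr-L against 44.0, 44.9 and 42.6 FPKM in Tyr-H libraries (log2 fold change -0.59, SE 0.04, limma adjusted p = 2.2e-06). The overlapping *Gm11788* was not listed in Tyr-L libraries and averaged 0.0427 FPKM in Tyr-H cells. *Slc25a11*, the 2-oxoglutarate/malate carrier, overlapped between the groups at 61.1 ± 0.594 and 59.1 ± 2.57 FPKM (SD, n = 3; log2 fold change -0.05, 95% confidence interval -0.14 to 0.04, limma adjusted p = 0.29), and its sign turned to 0.10 after median ratio scaling and 0.01 after quantile normalization. *Slc25a1*, the citrate carrier, overlapped at 24.3 ± 1.18 and 23.0 ± 0.240 FPKM (SD, n = 3; log2 fold change -0.08, 95% confidence interval -0.18 to 0.03, limma adjusted p = 0.17), and its sign turned to 0.08 and 0.05 under the same scalings. The ratio of *Slc25a10* to *Slc25a11* was 1.06, 1.09 and 1.09 in Tyr-L and 0.751, 0.727 and 0.75 in Tyr-H libraries, so that the order of the pair was opposite in the 2 cell types.

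The members lie on 16 chromosomes, and 15 of the 33 overlap another annotated gene in GENCODE M21, so that their reads could be shared. The genes whose results matter most lie, in GRCm38, at chr14:55540266-55551242 on the plus strand (*Pck2*), chr1:65158616-65186500 on the minus strand (*Idh1*), chr11:120491840-120499187 on the plus strand (*Slc25a10*), chr4:11958184-11966452 on the minus strand (*Pdp1*) and chr8:104591451-104599026 on the plus strand (*Pdp2*). All are annotated as protein-coding genes, and *Idh1*, *Pdp1* and *Pdp2* overlap no other annotated gene.

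Of 31 other genes of the pathway, which include malic enzymes, lipoylation enzymes and further carriers, 26 could be tested, and 6 were higher and 7 lower in Tyr-H cells at an adjusted p no larger than 0.05, against 17.9% and 39.9% of all tested genes. Their median log2 fold change was 0.04. Among the genes higher were *Got1*, *Gpt2*, *Ldhb* and *Slc16a3*, and among those lower were *Acly*, *Dhtkd1*, *Slc25a12*, *Slc25a13*, *Ldha* and *Slc16a1*. Of the 7 lower, *Dhtkd1* alone stayed lower after median ratio scaling, where 12 of the 26 were higher, against 27.8% of all tested genes. *Pdha2*, *Pck1* and *Mpc1l* were listed in no library, so that *Pck2* was the phosphoenolpyruvate carboxykinase listed in these cells.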

How the data were processed

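The labels gave 3 Tyr-L and 3 Tyr-H libraries. The authors deposited 1 table of FPKM per library. The submitters' processing notes name Trimmomatic, HISAT, HISAT2 and GRCm38.p6, without versions or roles, and the quantifier, annotation and strandedness of counting are not given in the sources used here. Unlisted genes were taken as 0. FPKM are not counts, so no count test was run. The depth was estimated from the lowest step between FPKM values of genes with a single transcript of at least 1500 nt, and floors rest on 3 fragments at this depth and cover counting error only.

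Genes averaging 0.1 FPKM or more were compared on log2(FPKM + 0.1) with limma 3.58.1 in R 4.3.3 (variance trend, two-sided, Benjamini-Hochberg over 14336 genes), without covariates. A gene passed with an adjusted p no larger than 0.05 and was called if it also changed at least 2-fold, after the thresholds of the study's methods. The pseudocount shrinks the fold changes of low genes. Single values had exact permutation tests in Python 3.11.15 with scipy 1.17.1. The procedure was tested on simulated data. Alternatives were other pseudocounts, filters, scalings, variance models and thresholds, the replicate number as a block, and each library left out.

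Values in every library are given for genes called, the 15 members with the largest log2 fold changes, and kinases and phosphatases. The members and lists were chosen with earlier results of these data known. Coordinates and overlaps came from GENCODE M21, and promoters from RefSeq (GRCm38.p6). Some genes of the wider pathway are not reported here.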

Additional observations from a re-analysis of the deposited data

How the results depend on the processing

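With no fold threshold, 2570 genes were higher and 5722 lower, and 25 members were called. A filter at a mean of 1 FPKM, which removes *Pdk2*, gave 247 and 393 genes and 1 member, and a pseudocount of 1 FPKM gave 185 and 203 genes and 1 member, *Pdk2* being the one lost, with a log2 fold change of 0.292 against 1.686 with a pseudocount of 0.01 FPKM. Of the called genes, 33.9% were higher on the deposited scale (425 higher and 829 lower), 55.3% with quantile normalization (611 and 494), 47.8% with median ratio scaling (538 and 588) and 25.5% with rescaling to a total of 1000000 (403 and 1175). The members' median log2 fold change was 0.355 with median ratio scaling, 0.27 with quantile normalization and 0.107 with rescaling to a total of 1000000, which gave 7 members lower. Signs turned for *Idh2* (0.10), *Slc25a1* (0.076) and *Slc25a11* (0.103) with median ratio scaling, for *Slc25a1* (0.045) and *Slc25a11* (0.011) with quantile normalization, and for *Pdha1* (-0.001), *Dlat* (-0.022), *Idh3b* (-0.022) and *Dlst* (-0.024) with rescaling to a total of 1000000. Without 1 library, 1 to 2 members were called, *Pdk2* being the one lost, the members' median was 0.178 to 0.217, and the log2 ratio of *Glud1* to *Got2* was -0.033 to 0.022. With quantile normalization, chosen for the ratios after seeing the data, the log2 ratios of *Idh3a* to *Idh3b* (-0.071) and of *Glud1* to *Got2* (0.079) turned sign. In the fits without 1 library, on the deposited scale, the members passing numbered 17 to 21 higher and 4 lower. In 1 or another of these fits 5 members changed side of the threshold: *Idh3a*, *Mdh1*, *Mpc2*, *Pdha1* and *Pdk2*. Same-numbered libraries did not deviate together (r = 0.022, 0.013 and -0.083 across genes), so no effect shared by replicate number was seen. Whether same-numbered libraries were prepared together is not given in the sources used here. Without a variance trend, *Mpc2*, *Pdha1* and *Idh3a* did not pass (limma adjusted p = 0.057, 0.12 and 0.083). With the replicate block, 430 genes were called higher and 828 lower, and 30 members kept their side, *Pdha1* (adjusted p = 0.09 from limma) and *Idh3a* (0.052) not passing. Depth is known only as an estimate, and values of *Pdk2* near the floor rest on few fragments.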

Other observations

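Genes at the lactate end of pyruvate metabolism and 1 further transaminase, outside the 33 genes, had these values. *Ldha*, the lactate dehydrogenase subunit that favours lactate formation, held 1161, 1089 and 1074 FPKM in the Tyr-L libraries against 998, 1010 and 1039 FPKM in the Tyr-H libraries (log2 fold change -0.13, limma adjusted p = 0.027), and after median ratio scaling its log2 fold change was 0.03. *Ldhb*, the other subunit, held 131, 127 and 125 FPKM in Tyr-L against 189, 190 and 201 FPKM in Tyr-H libraries (log2 fold change 0.60, limma adjusted p = 1.5e-06). The lactate transporter gene *Slc16a3* held 13.1, 6.8 and 9.94 FPKM in Tyr-L against 26.6, 33.7 and 33.8 FPKM in Tyr-H libraries (log2 fold change 1.69, limma adjusted p = 8.2e-05), whereas *Slc16a1* was 51.2 ± 1.45 and 47.4 ± 1.20 FPKM (SD, n = 3; log2 fold change -0.11, limma adjusted p = 0.028), with 0.04 after median ratio scaling.

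*Gpt2*, the mitochondrial alanine aminotransferase, which makes 2-oxoglutarate and alanine from glutamate and pyruvate, held 5.11, 6.22 and 5.52 FPKM in Tyr-L against 20.3, 21.6 and 21.1 FPKM in Tyr-H libraries. It was 3.73-fold higher in Tyr-H cells (log2 fold change 1.89, limma adjusted p = 2.4e-07). Among the 26 other genes tested, *Gpt2* and *Slc16a3* were the 2 called, against 2.96% of all tested genes called higher, and *Got1* was 1.60-fold higher (log2 fold change 0.68, limma adjusted p = 4.7e-07).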
